A study of Mus musculus with 9 samples.

Results

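The 10 genes described here are immediate early genes of the mouse liver, the AP-1 transcription factor genes Fos, Fosb, Jun, Junb and Jund, the zinc finger transcription factor gene Egr1, the genes Ier2 and Ier3, and the feedback genes Dusp1 and Zfp36. They were taken by gene symbol from a deposited table of 16755 genes, and all 10 were found in it. Polyadenylated RNA was sequenced from 3 male mice in each of 3 groups, of strain C57BL/6 by the labels and on a C57BL/6J background by the study's methods. Control liver came from untreated Scd2f/f mice, in which an exon of Scd2 is flanked by loxP sites. Scd2f/f TAL, tumor-adjacent liver, came from mice with the same floxed allele that were given the carcinogen diethylnitrosamine (DEN, 10 mg/kg) when 2 weeks old and a Western alcohol diet (WAD) for 4 months from an age of 6 weeks, as the labels give it (the study's methods give a longer time on the diet). Scd2f/f;CC TAL came from mice that had the same DEN + WAD regimen and also carried Cre recombinase driven by the Col1a1 promoter, so that Scd2 is deleted in collagen-producing cells such as activated hepatic stellate cells (aHSC) and not in every liver cell. The sample labels name the tissue only as liver. The study states that TAL held microscopic tumors though none were visible, and that Scd2f/f;CC mice had markedly fewer or smaller tumors. Tumor content of these samples was not measured here, so its part in a group difference cannot be told apart from the rest. No age or diet was recorded here for the control mice. No untreated Scd2f/f;CC group was analysed here, so an effect of Cre without DEN + WAD cannot be told apart from its effect with it.

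Immediate early genes are switched on within minutes of a growth factor, cytokine or stress signal without new protein synthesis. Mitogen-activated protein (MAP) kinases and other kinases act on factors already bound at their promoters, including SRF with its ETS partners at CArG boxes and CREB/ATF proteins at cAMP response elements, and the mRNAs are then destroyed quickly through AU-rich elements in their 3′ ends. In the liver, they are known for a sharp rise after partial hepatectomy and in injury, and JUN is known to promote liver tumors in mice that received DEN. The same genes are also known to respond to the handling of tissue.

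The regulatory sequences of the members are shown first, since the class is known for a signal-responsive promoter and an unstable mRNA. Neither property was measured here. RefSeq promoters on GRCm38.p6 were matched for 8 of the 10 members, Egr1 and Ier2 being the other two. The stretch of up to 250 bases just upstream of the annotated start is given 5′ to 3′ for Fos, Jun, Junb and Dusp1. Fos and Jun are the partners of the classical AP-1 dimer, and Dusp1 was the only member without its highest mean in Scd2f/f TAL. Capitals mark any of the motifs searched, on both strands: TGACGTCA, the palindromic cAMP response element, its core TGACG, which overlaps it, the related TGACNTCA, the AP-1 site TGACTCA, the CArG box, the EGR1 consensus GCGNGGGCG and the TATA box TATAAA.
Fos (chr12:85473640-85473889, plus strand): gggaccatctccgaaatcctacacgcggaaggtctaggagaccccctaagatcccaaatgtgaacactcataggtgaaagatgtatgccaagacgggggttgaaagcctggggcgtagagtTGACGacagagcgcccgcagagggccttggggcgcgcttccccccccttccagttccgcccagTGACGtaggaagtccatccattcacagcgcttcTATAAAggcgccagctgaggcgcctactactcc
Jun (chr4:95052223-95052472, minus strand): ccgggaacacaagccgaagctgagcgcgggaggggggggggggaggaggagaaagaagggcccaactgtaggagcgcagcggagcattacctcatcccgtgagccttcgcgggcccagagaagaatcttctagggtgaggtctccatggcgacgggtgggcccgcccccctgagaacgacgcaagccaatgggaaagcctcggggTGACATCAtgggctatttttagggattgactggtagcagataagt
Junb (chr8:84978749-84978998, minus strand): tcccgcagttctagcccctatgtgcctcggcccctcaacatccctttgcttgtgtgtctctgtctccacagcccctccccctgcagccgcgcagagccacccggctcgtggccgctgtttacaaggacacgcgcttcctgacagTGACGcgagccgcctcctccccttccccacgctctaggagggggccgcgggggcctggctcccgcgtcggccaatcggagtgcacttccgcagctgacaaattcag
Dusp1 (chr17:26508520-26508722, minus strand): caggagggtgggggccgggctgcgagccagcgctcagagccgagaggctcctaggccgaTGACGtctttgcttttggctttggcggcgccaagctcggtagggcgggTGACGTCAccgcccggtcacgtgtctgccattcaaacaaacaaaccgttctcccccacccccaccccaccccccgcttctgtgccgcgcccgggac

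The upstream sequence of Fos held the core TGACG at 2 positions, the nearer from 66 to 62 bases before the start, and TATAAA 33 bases before it. That of Jun held the 8-mer TGACATCA from 45 to 38 bases before the start. Of the 8 windows searched, that of Dusp1 alone held the full element TGACGTCA, which was found in 2.37% of 13992 promoters of genes in the table. The core TGACG was found for 4 members (Fos, Fosb, Junb and Dusp1) of 8 beside 25% of all promoters, and TGACNTCA for Jun and Dusp1 beside 6.27%. The EGR1 consensus was found for Fosb and Zfp36 (8.27% of all promoters), a CArG box for Zfp36 (1.16%) and TATAAA for Fos (7.30%), while TGACTCA (3.44%) was found for 0 members. For Jund and Zfp36, the RefSeq start lay 1210 and 1025 bases from the 5′ end of the gene in the deposited table, so their windows stand for another start than the counted gene's. These matches describe letters in a window and not bound sites.

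The 3′ untranslated regions (UTRs) of the members were searched for ATTTA, the core of AU-rich elements, and for the longer ATTTATTTA, which ends in a second core and binds proteins such as tristetraprolin, the product of Zfp36. In GENCODE M21 transcripts, 9 of the 10 members held ATTTA, all but Ier2, beside 66.8% of the 10797 expressed genes, those whose mean over the 3 groups was 1 or more, that had a 3′ UTR in a matched transcript. The median density was 3.56 ATTTA per kb of 3′ UTR for the members and 1.28 for those genes. The longer element was found for Fos and Dusp1, beside 5.75% of genes, and is shown in capitals within 25 bases of each 3′ UTR, from base 645 for Fos and from base 97 for Dusp1.
Fos 3′ UTR: tgttttcaATTTATTTAttaagatg
Dusp1 3′ UTR: tggtccttATTTATTTAacaccccc
The members were also compact genes, with a median span of 3.29 kb and a median of 1 intron, whereas those expressed genes had medians of 24.9 kb and 8 introns. Jun, Junb, Jund and Ier2 have no intron in these transcripts.

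The values that follow are the authors' group means of upper quartile normalized counts, with no value for a single mouse. No error or interval is given and no test was run on them here, and the authors' own p-values were not used, so the differences describe these 3 groups of libraries without a measure of the spread between mice. The depth of the libraries is unknown. All 3 comparisons share group means, so their ratios for 1 gene are not independent. Levels of different genes in these units also depend on transcript length. In whole liver RNA, a change in the number of cells that express a gene and a change in RNA per cell cannot be told apart.

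Scd2, the targeted gene (chromosome 19, 44293676 to 44306864), had means of 2.46 in control liver, 6.47 in Scd2f/f TAL and 1.87 in TAL of Scd2f/f;CC mice. The mean in Scd2f/f;CC TAL was thus the lowest of the 3, in whole liver RNA that also holds cells without Cre. The summed means of all genes were 820581, 658322 and 739723 in the same order, while the 75th percentiles, to which the values were normalized, lay between 15.4 and 15.5.

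Of the 10 immediate early genes, 9 had their highest mean in Scd2f/f TAL, and all 10 had a lower mean in Scd2f/f;CC TAL than in Scd2f/f TAL. The members' means summed to 128 in control liver, 199 in Scd2f/f TAL and 131 in TAL of Scd2f/f;CC mice. This sum weighs abundant genes most. In Scd2f/f;CC TAL, 6 members stood above control liver and 4 below it. Scd2f/f TAL was the highest group for 33% of expressed genes and for 34.7% of all genes in the table. The plot of group means by gene shows the 3 values of each member.

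**Figure D1:**
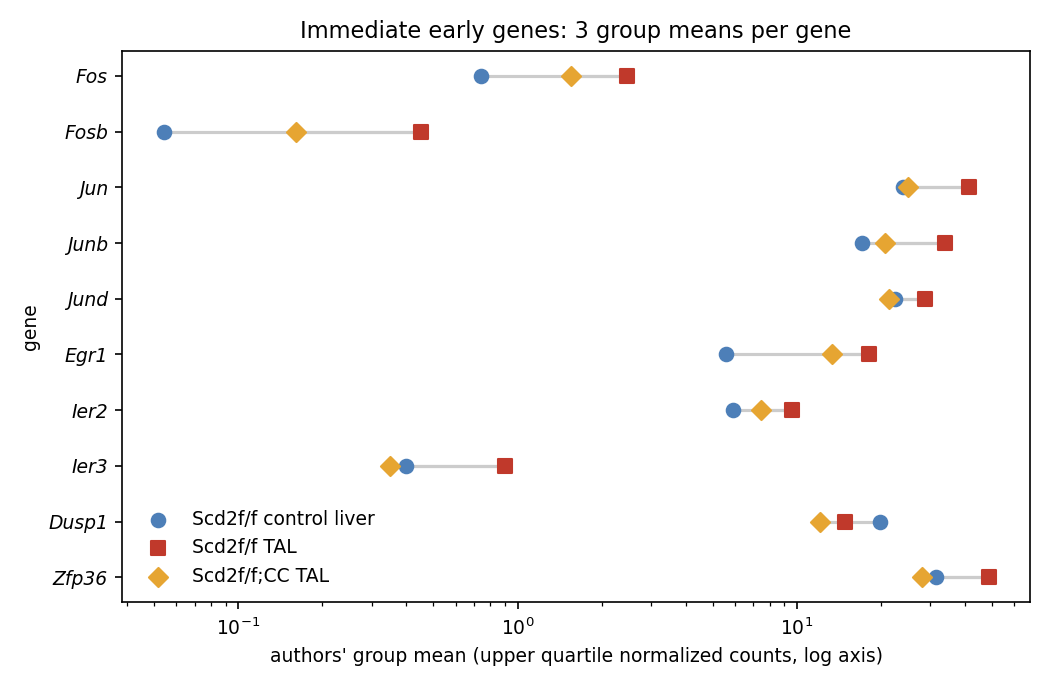
Authors' group means of upper quartile normalized counts (x axis, log scale) for each of the 10 immediate early genes (y axis), with blue circles for Scd2f/f control liver, red squares for Scd2f/f TAL and orange diamonds for Scd2f/f;CC TAL. The red square is the rightmost symbol for every gene except Dusp1, whose control mean of 19.9 was the highest. The grey line joins the 3 means of a gene and is no error bar.

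FOS proteins bind DNA only as dimers with JUN proteins. Fos (chromosome 12, 85473890 to 85477273, plus strand, with the promoter shown above) had means of 0.742 in control liver, 2.47 in Scd2f/f TAL and 1.55 in TAL of Scd2f/f;CC mice. Its mean was 3.33-fold higher in Scd2f/f TAL than in control liver, and 1.59-fold lower in Scd2f/f;CC TAL than in Scd2f/f TAL. Scd2f/f;CC TAL stayed 2.09-fold above control liver, so Fos stood between the other groups there.

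Fosb (chromosome 7, 19302696 to 19310051, minus strand) had means of 0.054, 0.45 and 0.161 in control liver, Scd2f/f TAL and Scd2f/f;CC TAL. Its ratio of Scd2f/f TAL over control liver, 8.33, was the largest among the members, and its mean was 2.80-fold lower in Scd2f/f;CC TAL than in Scd2f/f TAL. These ratios rest on the lowest values of the 10 genes, since only 1.09% of all genes had a lower mean in control liver and the lowest mean listed there was 0.04. The log2 ratios of Fosb, 3.06 and -1.48, became 0.46 and -0.32 once 1 was added to every mean.

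The JUN proteins can pair with each other as well as with FOS, and JUNB is known to be a weaker activator than JUN at AP-1 sites. Jun (chromosome 4, 95049034 to 95052222, minus strand) had means of 24 in control liver, 41.4 in Scd2f/f TAL and 25 in TAL of Scd2f/f;CC mice. Its mean was 1.73-fold higher in Scd2f/f TAL than in control liver and 1.66-fold lower in Scd2f/f;CC TAL than in Scd2f/f TAL, which left Scd2f/f;CC TAL at 1.04 times the control level. Jun was therefore high in Scd2f/f TAL alone among these groups.

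Junb (chromosome 8, 84974484 to 84978718, minus strand) had means of 17.1, 34.1 and 20.8 in control liver, Scd2f/f TAL and Scd2f/f;CC TAL. The ratio of 1.99 to control liver lay just under 2-fold, and the rounding of the means to 3 digits allows 1.99 to 2.00. Junb was 1.64-fold lower in Scd2f/f;CC TAL than in Scd2f/f TAL and 1.22-fold above control liver there. Jund (chromosome 8, 70698949 to 70700616, plus strand) had means of 22.6, 28.8 and 21.5, the flattest pattern of the Jun genes. Its mean was 1.27-fold higher in Scd2f/f TAL than in control liver, and the 0.951-fold ratio of Scd2f/f;CC TAL over control liver turned above 1 when group means were rescaled to the same sum.

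All 3 Jun genes overlap a gene on the opposite strand in the deposited table, Jun by 689 bases with Junos, Junb by 351 bases with Prdx2 and Jund by 919 bases with Gm11175. The library kit named in the labels does not mark strand, so reads from the shared bases cannot be assigned from strand. The overlapping genes had means of 0.509, 0.264 and 0.154 for Junos, 60.8, 52.0 and 52.6 for Prdx2, and 3.43, 5.47 and 4.24 for Gm11175 in control liver, Scd2f/f TAL and Scd2f/f;CC TAL. Gm11175, like Jund, was highest in Scd2f/f TAL, whereas Junos and Prdx2 were highest in control liver. How much of each value came from shared reads was not tested.

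Egr1 (chromosome 18, 34859823 to 34864984, plus strand) encodes a zinc finger activator that binds GC-rich sites of the kind found upstream of Fosb. Its means were 5.59 in control liver, 18.1 in Scd2f/f TAL and 13.4 in TAL of Scd2f/f;CC mice. The level in Scd2f/f TAL was 3.24-fold that in control liver, close to the ratio of Fos, while the mean in Scd2f/f;CC TAL was 1.35-fold lower than in Scd2f/f TAL and still 2.40-fold above control liver. Among the 8 members that counted as expressed, Egr1 had the highest ratio between Scd2f/f;CC TAL and control liver.

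Ier2 (chromosome 8, 84661331 to 84662852, minus strand) encodes a small nuclear protein and lies 0.312 Mb from Junb with 15 genes of the table between them. Its means were 5.94, 9.59 and 7.46 in control liver, Scd2f/f TAL and Scd2f/f;CC TAL, ratios of 1.61 for Scd2f/f TAL over control liver and 0.778 for Scd2f/f;CC TAL over Scd2f/f TAL. Ier3 (chromosome 17, 35821684 to 35822923, plus strand), known for effects on cell survival, had means of 0.399, 0.901 and 0.348. It was 2.26-fold higher in Scd2f/f TAL than in control liver and 2.59-fold lower in Scd2f/f;CC TAL than in Scd2f/f TAL, both at means under 1. Scd2f/f;CC TAL lay below control liver for Ier3 and above it for Ier2.

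Dusp1 and Zfp36 shut off the response that induces them. Dusp1 (chromosome 17, 26505590 to 26508519, minus strand), whose product removes phosphate from MAP kinases, had means of 19.9 in control liver, 14.9 in Scd2f/f TAL and 12.1 in TAL of Scd2f/f;CC mice. It was the single member whose mean was lower in Scd2f/f TAL than in control liver, by a ratio of 0.749, and it was 0.608 for Scd2f/f;CC TAL over control liver. Zfp36 (chromosome 7, 28376784 to 28380253, minus strand), which encodes tristetraprolin, an RNA-binding protein that brings AU-rich mRNAs to decay, had means of 31.7, 48.7 and 28.2. Zfp36 was 1.54-fold higher in Scd2f/f TAL than in control liver and 1.73-fold lower in Scd2f/f;CC TAL than in Scd2f/f TAL. The feedback genes thus ran in opposite directions between control liver and Scd2f/f TAL, and in the same direction between the TAL groups.

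Divided by the length of the GENCODE M21 transcript, the levels of the members in Scd2f/f TAL ran from 18.9 per kb for Junb, 17.5 for Zfp36, 17.3 for Jund and 13.0 for Jun through 7.49 for Dusp1, 6.30 for Ier2 and 4.04 for Egr1 to 1.17 for Fos, 0.797 for Ier3 and 0.119 for Fosb. Transcripts of the Jun genes were therefore more abundant per length than those of the Fos genes in these livers. Whether neighbours in this order differ beyond the spread between mice cannot be said from group means. The counted Junb gene spans 4235 bases and the intronless transcript used has 1809, so the place of Junb also depends on the length taken.

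Between Scd2f/f TAL and control liver, the question is how the DEN + WAD regimen goes with expression in mice without Cre. Of the 10 members, 9 were higher in Scd2f/f TAL, beside 52.7% of expressed genes, and 4 (Fos, Fosb, Egr1 and Ier3) were at least 2-fold higher. Of the expressed genes, 6.4% were at least 2-fold higher and 2.89% at least 2-fold lower, and of all genes in the table, 9.37% were at least 2-fold higher. Of the 8 members that counted as expressed, 2 were at least 2-fold higher. At 1.5-fold, 8 members were higher (all but Jund and Dusp1), beside 12.8% of expressed genes. The median log2 ratio of the members was 0.89, beside 0.03 over expressed genes. The ratio of Dusp1 was above that of 14.4% of those genes, and the ratios of the other members were above those of 77.3% (Jund) to 99.8% (Fosb) of them.

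Between the TAL groups, the question is how deletion of Scd2 in collagen-producing cells goes with expression under the same regimen. All 10 members had lower means in Scd2f/f;CC TAL, and Fosb and Ier3, 2 of them, were at least 2-fold lower. Both have means under 1, and of the 8 expressed members 0 were at least 2-fold lower. Of the expressed genes, 1.54% were at least 2-fold lower and 0.645% at least 2-fold higher, and of all genes, 4.07% were at least 2-fold lower. A lower mean by any amount was found for 48.4% of expressed genes. At 1.5-fold, 6 members were lower (Fos, Fosb, Jun, Junb, Ier3 and Zfp36), beside 4.87% of expressed genes. The median log2 ratio of the members was -0.69, beside 0.01, and between 0.475% (Fosb) and 12.9% (Dusp1) of the expressed genes had a lower ratio than a member.

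Between Scd2f/f;CC TAL and control liver, which differ in genotype and regimen together, 6 members were higher, beside 54.3% of expressed genes, and 4 lower. Fos, Fosb and Egr1 were at least 2-fold higher, beside 4.51% of expressed genes and 6.41% of all genes. Jund, Ier3, Dusp1 and Zfp36 were below control liver, Dusp1 by the most. The median log2 ratio of the members was 0.17, beside 0.04 over expressed genes. The plot of log2 ratios by gene and that of their place among all genes show these comparisons.

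**Figure D2:**
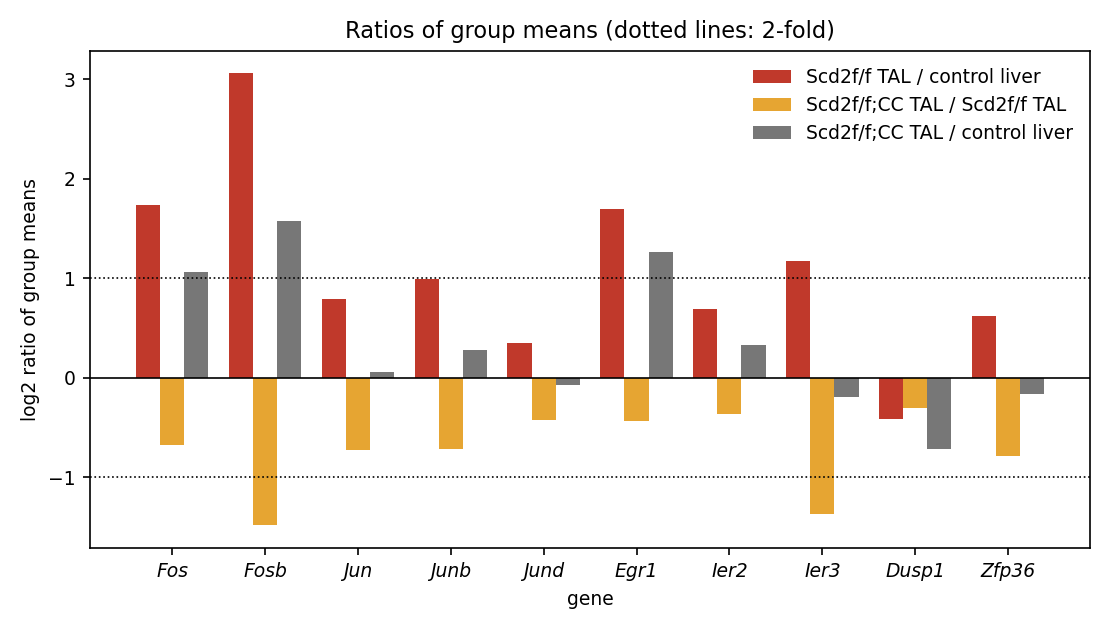
Log2 ratios of the authors' group means (y axis) for the 10 immediate early genes (x axis), in red for Scd2f/f TAL over control liver, in orange for Scd2f/f;CC TAL over Scd2f/f TAL and in grey for Scd2f/f;CC TAL over control liver, without error bars since single mice are not given. All orange bars point down, while 9 red bars point up, Dusp1 (-0.42) being the exception.

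**Figure D3:**
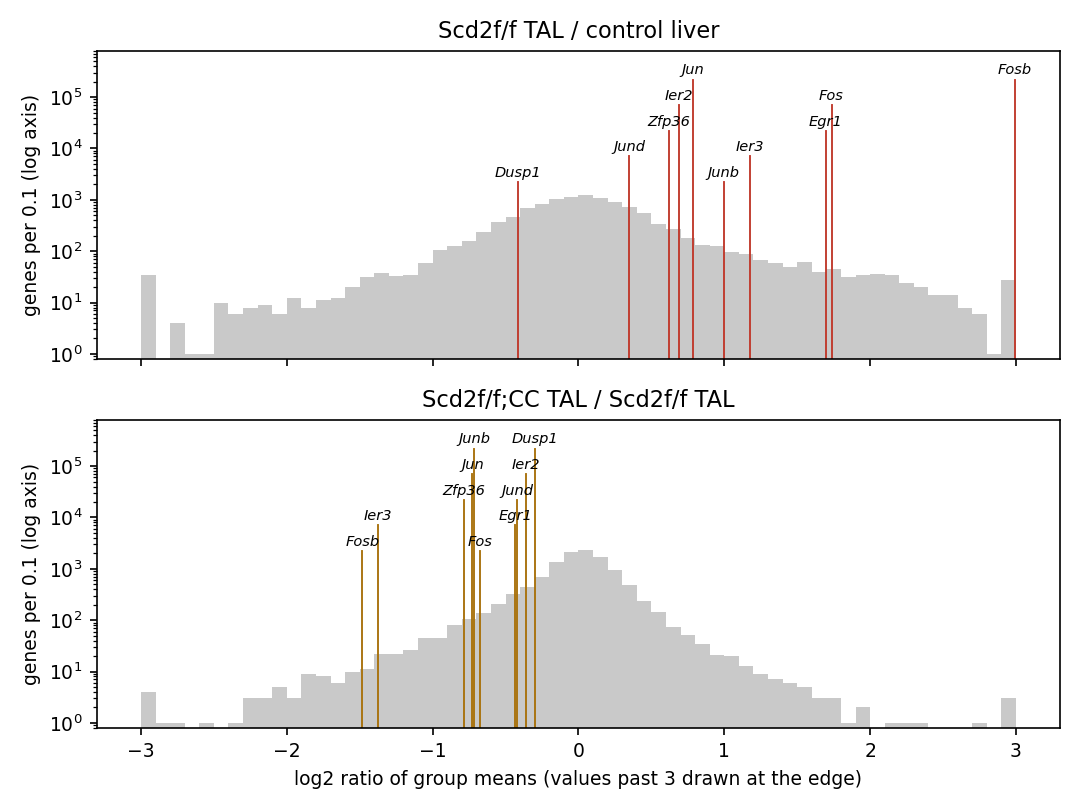
Number of genes per 0.1 of log2 ratio (grey, log y axis) among 11784 expressed genes, for Scd2f/f TAL over control liver (top) and Scd2f/f;CC TAL over Scd2f/f TAL (bottom), with vertical lines at the members, including Fosb and Ier3, whose means are under 1. Values past 3 are drawn at the edge, as for Fosb (3.06) in the top panel, and all 10 lines of the bottom panel lie below 0.

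A list of 37 other immediate early genes ran in the same directions with more exceptions. Of these, 31 were higher in Scd2f/f TAL than in control liver, beside 52.7% of expressed genes, with a median log2 ratio of 0.81. At least 2-fold higher were 17 of them, beside 9.37% of all genes. In Scd2f/f;CC TAL, 29 were lower than in Scd2f/f TAL, beside 48.4% of expressed genes, with a median of -0.54. At least 2-fold lower were 7, beside 4.07% of all genes. Of the 31 that counted as expressed, 13 were at least 2-fold higher in the first comparison, beside 6.4% of expressed genes. In the second, 4 of the 31 were at least 2-fold lower, beside 1.54%. Scd2f/f TAL was the highest group for 24 of the 37, beside 33% of expressed genes. Atf3, a stress-induced partner of JUN, had means of 0.404 in control liver, 3.69 in Scd2f/f TAL and 0.982 in TAL of Scd2f/f;CC mice. Klf6, a zinc finger factor, had means of 6.75, 23.8 and 9.75, the same order as Fos and Egr1. Egr2 and Egr3, the relatives of Egr1, which were named after their values were seen, had means of 0.103, 1.46 and 0.309 and of 0.0544, 0.236 and 0.0699, so the low Egr genes were also highest in Scd2f/f TAL.

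The other genes named from the list differed in how Scd2f/f;CC TAL stood to the other groups. Nr4a1, an orphan nuclear receptor gene, had means of 0.44 in control liver, 1.82 in Scd2f/f TAL and 3.11 in TAL of Scd2f/f;CC mice, and was thus highest where all 10 members were below Scd2f/f TAL. Gadd45b, a growth arrest gene, had means of 0.258, 1.97 and 1.74. Socs3, an inhibitor of cytokine signaling through STAT3, had means of 6.44, 16.2 and 4.71, and Myc had means of 6.84, 6.41 and 2.05. Gadd45b had the order of Fos and Egr1 but was nearly as high in Scd2f/f;CC TAL as in Scd2f/f TAL, and Myc was low in Scd2f/f;CC TAL alone.

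The mRNAs of the kinases and factors that act on these promoters moved in both directions. Of 33 genes of this list, with ERK, JNK and p38 kinases, SRF and its partners and CREB among them, 18 were higher in Scd2f/f TAL than in control liver and 10 lower, with 1 at least 2-fold higher and 0 at least 2-fold lower, beside 6.4% and 2.89% of expressed genes. The one at least 2-fold higher was Rps6ka1, a kinase downstream of ERK, with means of 5.7, 11.5 and 8.63. The log2 ratios ran from -0.93 (Map2k3, a kinase that activates p38) to 1.01, with a median of 0.01. Between the TAL groups they ran from -0.44 to 0.45, also with a median of 0.01, and 0 of the 33 differed by 2-fold, beside 2.18% of expressed genes in either direction. Srf, named with Map2k3 after their values were seen, had means of 4.72, 4.76 and 4.24 in control liver, Scd2f/f TAL and Scd2f/f;CC TAL. Activity of these proteins was not measured here.

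Among 12 matched AP-1 dimer partners outside the Fos and Jun families, 3 were at least 2-fold higher in Scd2f/f TAL than in control liver and 0 differed by 2-fold between the TAL groups, with median log2 ratios of 0.47 and -0.19. These 3, Batf, Batf2 and Jdp2, named after their values were seen, each had a mean over the 3 groups under 1. Of all genes, 9.37% were as much higher. Among the 8 expressed partners, 0 differed by 2-fold in these comparisons. Their medians were 0.12 and 0.05, so that the second changed sign. Of 15 matched feedback inhibitors of MAP kinase signaling, 2 were at least 2-fold higher in Scd2f/f TAL than in control liver, beside 9.37% of all genes. Between the TAL groups 3 differed by 2-fold, beside 5.89% of all genes in either direction, 2 of the 3 being lower in Scd2f/f;CC TAL. The 2 were the same genes in both comparisons, Dusp2 and Dusp8, each with a mean over the 3 groups under 1. Of the 11 expressed inhibitors, 0 were thus called in those directions. The one higher in Scd2f/f;CC TAL was Spry4, an inhibitor of receptor tyrosine kinase signaling, with means of 2.49, 3.75 and 7.53. Dusp6, a phosphatase for ERK that was named, like Dusp2 and Dusp8, after its values were seen, had means of 20.5, 29.8 and 40.4. Spry4 and Dusp6 were thus highest in Scd2f/f;CC TAL, the group in which Dusp1 was lowest. Of 12 genes of mRNA decay through AU-rich elements, 0 differed by 2-fold in any of the 3 comparisons, beside 9.29%, 2.18% and 7.06% of expressed genes in either direction.

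**Figure D4:**
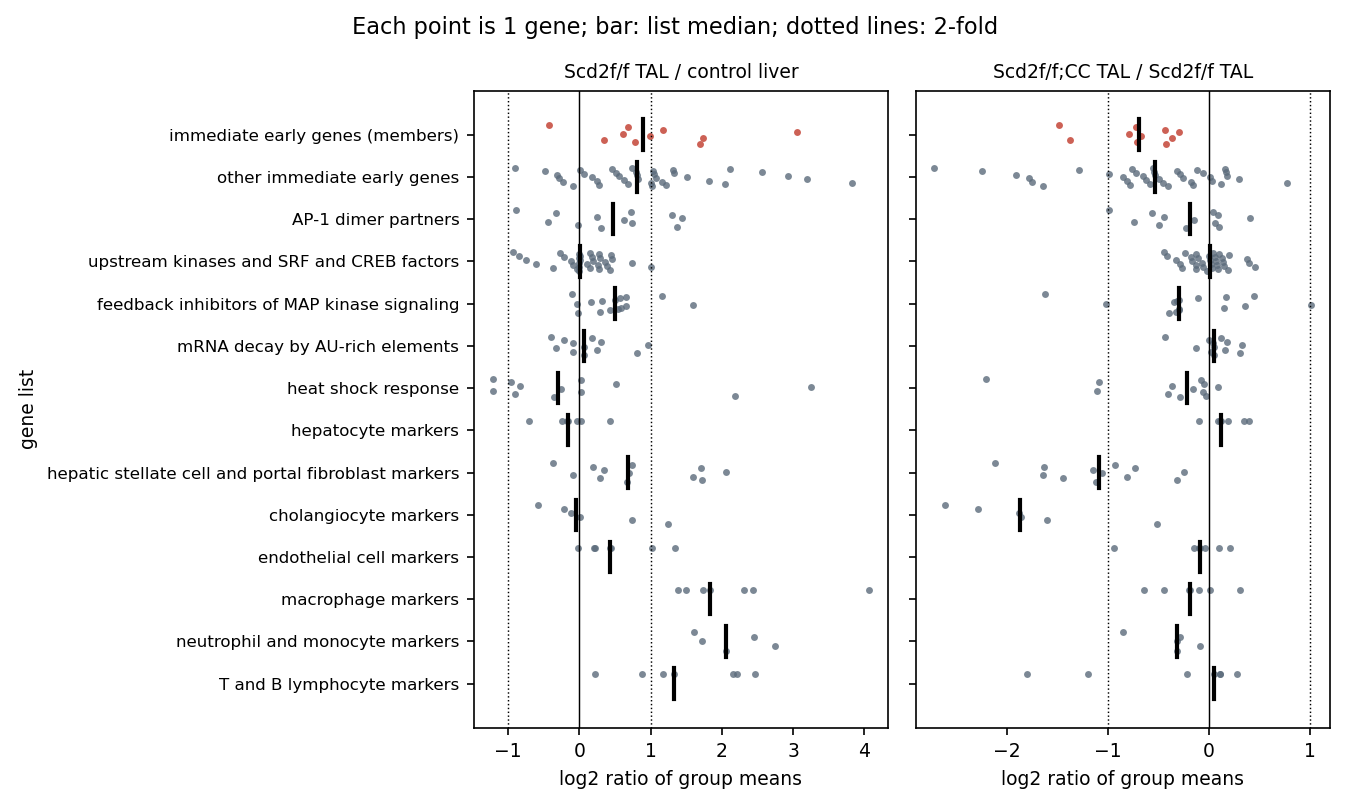
Log2 ratios of the authors' group means (x axes) for Scd2f/f TAL over control liver (left) and Scd2f/f;CC TAL over Scd2f/f TAL (right), with each point 1 gene, black bars the list medians and dotted lines 2-fold. The members (red) and the other immediate early genes have medians of 0.89 and 0.81 on the left and of -0.69 and -0.54 on the right, while the upstream kinases and factors have medians of 0.01 in both panels.

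A list of 12 heat shock and chaperone genes, some of which also respond to stress and to handling, was set beside the members. Hspa1a, an inducible chaperone gene, had means of 0.415 in control liver, 3.96 in Scd2f/f TAL and 0.861 in TAL of Scd2f/f;CC mice, and Hspa1b, its near-identical copy, had means of 7.62, 34.5 and 16.0. Reads of this pair may be split between them by the counting. Both had the order of Fos and Egr1, and they were the 2 of the list at least 2-fold higher in Scd2f/f TAL than in control liver, beside 6.4% of expressed genes. Hspe1 (107, 46.1 and 44.5) and Hspa5 (1010, 437 and 464) were at least 2-fold lower there, beside 2.89%, and the list's median log2 ratio was -0.30. Between the TAL groups the median was -0.22 and 11 of 12 were lower, beside 48.4% of expressed genes. Of these, 3 (Hspa1a, Hspa1b and Hspb1) were at least 2-fold lower, beside 1.54%. The part of tissue handling in the members' values was not tested.

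Markers of liver cell types moved with the groups as well. Hepatic stellate cell and portal fibroblast markers summed to 208 in control liver, 352 in Scd2f/f TAL and 200 in TAL of Scd2f/f;CC mice. All 12 were lower in Scd2f/f;CC TAL than in Scd2f/f TAL, beside 49.6% of all genes, and 7 at least 2-fold lower, beside 4.07%. Their log2 ratios ran from -0.25 for Lrat (means of 15, 19 and 16) to -2.12 for Col1a1 (4.69, 19.6 and 4.51). Reln, named with Lrat after their values were seen, had a log2 ratio of -0.32, so the markers fell to unlike degrees. In Scd2f/f TAL, 4 of 12 were at least 2-fold higher than in control liver, beside 9.37% of all genes. Of the 10 expressed markers, 5 were at least 2-fold lower and 3 at least 2-fold higher in these comparisons. These calls held for 1.54% and 6.4% of expressed genes. Like the members' sum, the sum of these markers was highest in Scd2f/f TAL, though 2 of the 12 markers were lower there than in control liver. Both sums weigh abundant genes most. Cholangiocyte markers summed to 59.0, 53.9 and 19.2, mostly from Spp1 (52.3, 45.1 and 14.8). All 6 were lower in Scd2f/f;CC TAL than in Scd2f/f TAL and 5 at least 2-fold lower, beside 4.07% of all genes. Only 3 of the 6 counted as expressed, and 2 of those were at least 2-fold lower, beside 1.54% of expressed genes. Macrophage markers, all 7 of them expressed, summed to 77.1, 293 and 264. All 7 were at least 2-fold above control liver in Scd2f/f TAL, beside 6.4% of expressed genes, and in Scd2f/f;CC TAL, beside 4.51%. Between the TAL groups, 0 of 7 differed by 2-fold, beside 2.18% of expressed genes in either direction.

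Neutrophil and monocyte markers (5 matched of 6) summed to 1.77, 8.61 and 6.08, T and B lymphocyte markers (7) to 1.57, 4.73 and 3.37, and endothelial markers (7) to 110, 147 and 147 in the same order. Hepatocyte markers, 7 matched of 8, summed to 38889, 39269 and 43702, which matches the labelled tissue. No marker of these lists was listed at 0 in any group. The part of the cell mixture in the members' values was not tested.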

How the data were processed

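The authors prepared polyadenylated RNA with an Illumina TruSeq V2 kit and counted reads on Gencode M3 genes by the E/M method of Partek. The submitters' processing notes name STAR 2.6.1, Partek 6 and mm10. The deposited table gives a signal per group, the authors' least-squares mean of upper quartile normalized counts, printed with 3 significant digits. Its columns for 2 comparisons of the authors (p-values, FDR, ratios and fold changes) were not used. Single mice were not analysed here.

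Ratios of means were taken without a pseudocount, and a gene was counted at a fold of at least 2. The background was the 11784 expressed genes, those whose mean over the 3 groups was 1 or more. The members and lists were chosen with earlier results of these data known. From each list, expressed genes with at least a 2-fold ratio could be named, up to 4 per comparison (others are marked as named after their values were seen), and from outside the lists Scd2, the nearest genes on the chromosome and the 5 genes of nearest pattern. The marker lists are described by their sums and, for some, by counts of 2-fold calls and by single genes. Promoters came from RefSeq (GRCm38.p6), and transcripts and 3′ UTRs from GENCODE M21. Coordinates are those of the deposited table, whose genes overlapped GENCODE M21 genes of the same symbol in 99.975% of 16171 matches. The 2-fold calls of both comparisons with Scd2f/f TAL and the promoter motif search were first tested on simulated data. The other steps were not. The alternatives were other folds, filters, pseudocounts and scalings. Python 3.11.15, NumPy 2.4.6, pandas 2.3.3 and Matplotlib 3.10.9 were used.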

Additional observations from a re-analysis of the deposited data

How the results depend on the processing

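No paired analysis was possible because the deposited means hold no values of single mice, and for the same reason no replicate could be left out. Counts of members that differed by at least 2-fold (4 for Scd2f/f TAL over control liver, 2 for Scd2f/f;CC TAL over Scd2f/f TAL, 3 for Scd2f/f;CC TAL over control liver) depended on the fold and on the low means of Fosb, Ier3 and Fos. At 1.5-fold they were 8 and 6 in the first 2 comparisons, and at 3-fold 0 in the last 2. A pseudocount of 1 gave 1, 0 and 1, and one of 0.1 gave 1 in the last. Among members with a mean of at least 1, an alternative chosen after seeing the data, the first 2 counts were 2 and 0. The median log2 ratios of the members became 0.61 (from 0.89) and -0.43 (from -0.69) with a pseudocount of 1, and 0.74 and -0.55 for members with a mean of at least 1. Rescaling the means to the same sum shifted the median of all genes by 0.32, -0.17 and 0.15, gave members' medians of 1.21, -0.86 and 0.32, raised the first count to 7 and turned the direction of Jund alone, between Scd2f/f;CC TAL and control liver. It moved the genes at least 2-fold higher and lower from 754 and 341 to 1235 and 206, from 76 and 181 to 45 and 274, and from 531 and 301 to 692 and 218. The share of genes with a 2-fold difference in either direction (9.29%, 2.18% and 7.06%) was 14.1%, 5.89% and 11% with no filter, and 5.23%, 1.11% and 4.51% at a mean of at least 10. The median log2 ratio over the members kept its sign in each comparison under these alternatives. The depth of the libraries is unknown.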

Other observations

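Of genes whose mean was 10 or more, the 5 whose pair of log2 ratios (Scd2f/f TAL over control liver, Scd2f/f;CC TAL over Scd2f/f TAL) lay nearest to the members' median pair of 0.89 and -0.69 were Myh10, Col14a1, Tm4sf4, Tmem176a and Tmem176b, at Euclidean distances from 0.0503 to 0.117 over these 2 ratios. Myh10, a nonmuscle myosin gene, had means of 12.9 in control liver, 24.7 in Scd2f/f TAL and 15.5 in TAL of Scd2f/f;CC mice. Col14a1, a collagen gene of fibroblasts, had means of 34.8, 66.9 and 43.2. Tmem176a and Tmem176b, neighbouring genes for membrane proteins, had means of 38.8, 67.8 and 44.1 and of 48.6, 84.1 and 49.9, and Tm4sf4 had means of 25.6, 49.4 and 32.4. These genes were chosen by their ratios, so their likeness to the members is a description.

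The 20 nearest expressed genes on either side of the members had median log2 ratios of 0.09 for Scd2f/f TAL over control liver and -0.08 for Scd2f/f;CC TAL over Scd2f/f TAL. Of these 20 neighbours, 1 was at least 2-fold higher in Scd2f/f TAL than in control liver, beside 6.4% of expressed genes. It was Mfsd7c beside Fos, with means of 1.11, 3.59 and 3.47. Another 1 of the 20 was at least 2-fold lower in Scd2f/f;CC TAL than in Scd2f/f TAL, beside 1.54% of expressed genes. This was Ddr1, a collagen receptor gene near Ier3, with means of 1.08 in control liver, 1.77 in Scd2f/f TAL and 0.448 in TAL of Scd2f/f;CC mice. Flot1, 0.306 kb from Ier3, is the closest neighbour that does not overlap a member.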
